A study of Penicillium citrinum with 6 samples.

Results

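Sterol and isoprenoid synthesis genes of the mould *Penicillium citrinum* were followed here across plates and tobacco leaves. They are the 59 of 9385 genes whose deposited product name contains sterol, eburicol, lanosterol, squalene, farnesyl, geranylgeranyl, mevalonate, isopentenyl or a spelling of hydroxymethylglutaryl. One sterol esterase was left out by name, as was any name with the word transcription. The rule reads product names and not the measured values. The study sequenced total RNA of wild-type mycelium in 6 libraries, 2 per group. TL3D and TL2D are mycelium from tobacco leaves that were inoculated with conidia and sampled after 3 and 2 days at 25 °C. CK2D mycelium grew for 2 days at that temperature on plates of Czapek-Dox, a sucrose and nitrate medium. All groups are labelled wild type. The titles carry only the codes, which were matched to substrates through the growth description and the sampling days. Whether the 2 libraries of a group came from separate cultures is not stated, so p-values measure the spread between these libraries only. No marker gene of mycelium was fixed, so that label was not checked.

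Ergosterol is the main sterol of fungal membranes and the counterpart of animal cholesterol. Its synthesis starts from acetyl-CoA, which the mevalonate route turns into isopentenyl diphosphate, the building block of all isoprenoids. Prenyl diphosphate synthases join these units into farnesyl diphosphate, which feeds sterols, protein prenyl anchors, heme A, dolichol and ubiquinone. A pair of farnesyl units gives squalene, which is oxidised and folded into lanosterol. A chain of oxygen-consuming and NADPH-consuming enzymes then strips methyl groups and shifts double bonds until ergosterol is reached. Azole fungicides block the sterol 14-alpha-demethylase of this chain, and *P. citrinum* is known as a source of compactin, a statin that blocks HMG-CoA reductase.

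Every gene has an FPKM, a fragment number divided by gene length and library total, in each library. The FPKM of a library summed to between 582600 and 614206, and the read number behind it is unknown. Members held 0.561% and 0.578% of that sum in TL3D, 0.634% and 0.604% in TL2D, and 0.464% and 0.462% in CK2D. The TL2D replicates stood further apart than the others. Of 8407 genes, 360 lay at least 2-fold apart between them on FPKM + 1, against 10 in TL3D and 18 in CK2D, and 0 of the 58 members among these genes did so in any group. The added 1 narrows the spread of low genes. On FPKM itself the TL2D replicates of PCI_3479 (0.772 and 0.166) and PCI_2756 (1.54 and 0.395) lay more than 2-fold apart. In such bulk libraries fewer hyphae of a kind and less RNA per hypha cannot be told apart. Levels below are FPKM of replicates 1 and 2. Changes are log2 differences ± SE fitted on FPKM + 1, and folds are ratios of mean FPKM. The words rose, fell and called stand for a limma adjusted p (Benjamini-Hochberg over all genes tested) under 0.05.

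TL2D was compared with CK2D to see which members differ between leaf and plate at the same sampling day. On leaves, the 3 largest rises were those of genes for steps after lanosterol, led by PCI_1876, annotated as eburicol 14-alpha-demethylase, at 96.1-fold. HMG-CoA synthase at the head of the mevalonate route rose 4.53-fold. A second squalene synthase and the most abundant gene named sterol O-acyltransferase fell 5.23-fold and 2.66-fold. Of 58 members tested, 18 rose (24.8% of all 8286 tested genes rose) and 13 fell (29.4% of all genes fell). The share of members called in either direction, 53.4%, lay next to the 54.2% of all tested genes, so the number of calls does not set the members apart. At least 1 on the log2 scale, 8 rose and 7 fell (10% and 12.2% of all tested genes, 22.3% in either direction). The members' median log2 change was 0.01, against −0.10 over all tested genes. The remaining member, the geranylgeranyl pyrophosphate synthase PCI_3663, annotated paxG after an indole-diterpene cluster, was under 1 FPKM in each of the 6 libraries and was not tested. The authors' deposited table marks 8 members as higher and 8 as lower in TL2D. The share of all genes marked there was not counted, so these numbers do not set the members apart.

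**Figure D1:**
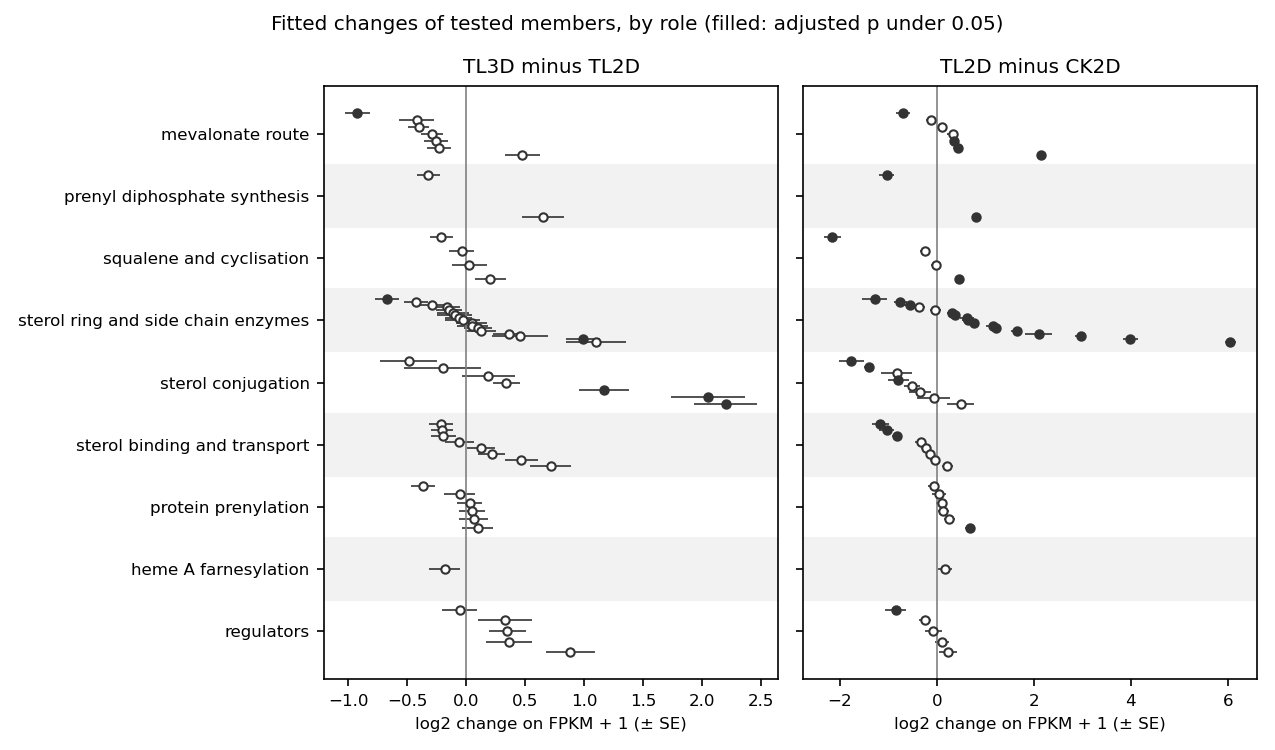
Fitted log2 changes on FPKM + 1 with their SE for the tested members, grouped by role, for TL3D minus TL2D (left) and TL2D minus CK2D (right, on its own scale). Each point is 1 gene, filled where the adjusted p was under 0.05. The mevalonate route row includes the HMG-CoA lyase PCI_8782, which is no sterol enzyme and is the 1 filled point of that row on the left. On the right the sterol ring and side chain enzymes reach 6.06, and on the left the 2 largest changes, 2.20 and 2.05, are sterol glucosyltransferases.

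Calls rested partly on single libraries. The 8 members called in each of the 4 fits that left out 1 library were PCI_1876, PCI_5606, PCI_6107, PCI_6396, PCI_6659 and PCI_7505, which rose, and PCI_2674 and PCI_9347, which fell. The other 23 calls were lost in at least 1 of these fits. Without either CK2D replicate 7 members rose and 2 fell (of all tested genes 7.16% rose and 6.53% fell without replicate 1, and 7.49% and 6.15% without replicate 2), and the spread then comes from the TL2D pair alone.

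The steps after lanosterol held most of the rises. Of 16 genes assigned to them, 11 rose, 3 fell and 2 had no call, with a median log2 change of 0.69 (−0.10 over all tested genes, of which 24.8% rose and 29.4% fell). Their summed FPKM was 1979 and 1766 in TL2D, against 974 and 932 in CK2D. The demethylase PCI_1876, which oxidises the 14-alpha-methyl group off the sterol ring, had 243 and 216 FPKM in TL3D, 229.7 and 199 in TL2D and 2.11 and 2.35 in CK2D. All 4 leaf libraries lay far above both plate libraries, and the change in TL2D was log2 6.06 ± 0.12, adjusted p = 9.78e-05. A second gene of the step, PCI_6001 (sterol 14-alpha demethylase), had 120.2 and 119 FPKM in TL2D, against 73.3 and 66.6 in CK2D, a rise of 1.71-fold (log2 0.77 ± 0.09, adjusted p = 0.00468; without CK2D replicate 2, adjusted p = 0.0561). On plates PCI_6001 was the more abundant of both, and on leaves PCI_1876 was.

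The reductase that removes the double bond left by demethylation, Delta(14)-sterol reductase, is also named for 2 genes. PCI_6396 had 34.4 and 33.4 FPKM in TL3D, 56.6 and 52.8 in TL2D and 6.29 and 5.98 in CK2D, which placed the plate libraries lowest and TL2D highest. It rose 8.92-fold in TL2D (log2 2.96 ± 0.11, adjusted p = 0.000342). PCI_8339 had 96.5 and 76.2 FPKM in TL2D, against 54.6 and 56.4 in CK2D, and rose 1.56-fold (adjusted p = 0.0212, and up to 0.128 without a CK2D replicate). Methylsterol monooxygenase, which starts removal of the C-4 methyl groups, is another step with 2 genes. PCI_6659 had 86.3 and 81.1 FPKM in TL3D, 88.9 and 73.2 in TL2D and 3.77 and 4.54 in CK2D. The leaf libraries overlapped each other and stood clear of the plates, with a rise of 19.5-fold in TL2D (log2 3.99 ± 0.15, adjusted p = 0.000393). Its more abundant partner PCI_6107 had 355 and 298 FPKM in TL2D, against 102 and 104 in CK2D, and rose 3.17-fold (log2 1.65 ± 0.12, adjusted p = 0.00146).

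**Figure D2:**
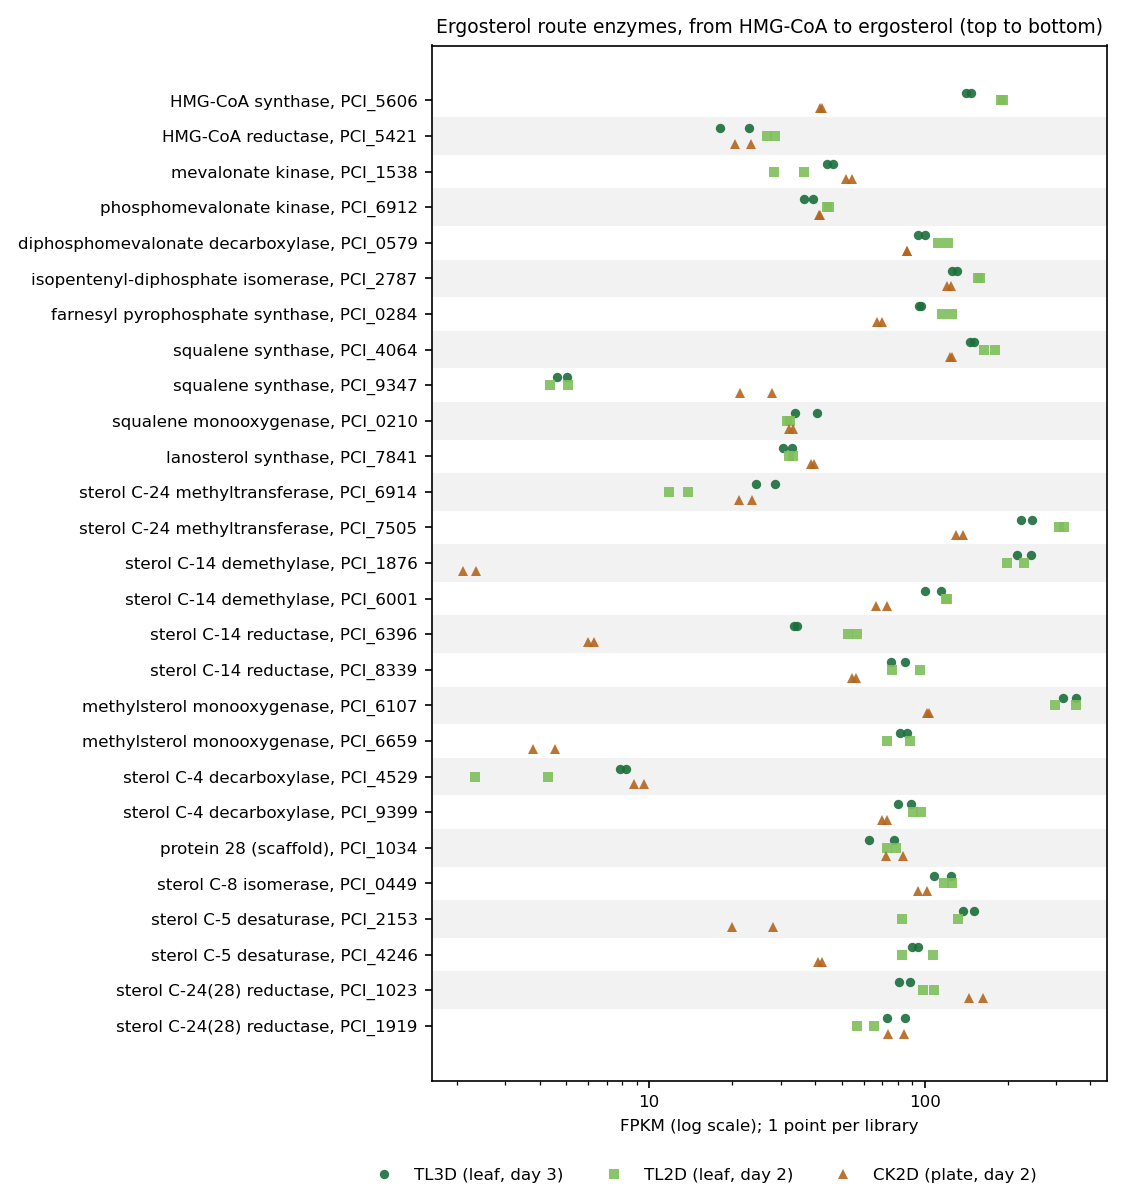
FPKM (log axis) of the 27 genes assigned to steps of the ergosterol route, in route order from top to bottom, with 1 point per library. In TL3D and TL2D, PCI_1876, PCI_6396 and PCI_6659 lie well to the right of their CK2D points, at 229.7 and 199 FPKM in TL2D for PCI_1876, against 2.11 and 2.35 in CK2D, while the squalene synthase PCI_9347 lies to the left.

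Other late enzymes rose as well. The sterol 24-C-methyltransferase PCI_7505, which adds the side-chain methyl group typical of fungal sterols, had 322 and 308 FPKM in TL2D, against 138 and 129.9 in CK2D (log2 1.23 ± 0.09, adjusted p = 0.00148). Delta(7)-sterol 5(6)-desaturase, which puts in the ring double bond at C-5, is named for PCI_2153 and PCI_4246. PCI_2153 had 132 and 82.9 FPKM in TL2D, against 19.9 and 28.2 in CK2D, a rise of 4.47-fold (log2 2.10 ± 0.29, adjusted p = 0.00617; 0.055 without CK2D replicate 1). PCI_4246 had 108 and 82.9 FPKM in TL2D, against 41.02 and 42.4 in CK2D, and rose 2.28-fold (adjusted p = 0.00542, and up to 0.0588 without a CK2D replicate). The leaf libraries lay above the plate libraries for all 3 genes. Smaller rises were those of the C-8 sterol isomerase PCI_0449 (log2 0.31 ± 0.09) and the C-4 decarboxylase PCI_9399 (log2 0.38 ± 0.09). Without a CK2D replicate their adjusted p was up to 0.254 and 0.157, and with upper-quartile scaling PCI_0449 had no call (adjusted p = 0.0565). PCI_3701, whose name ERG4/ERG24 covers reductases of different steps, had 8.97 and 8.52 FPKM in TL2D, against 5.42 and 5.03 in CK2D (log2 0.65 ± 0.13, adjusted p = 0.0144; up to 0.123 without a CK2D replicate).

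Against these rises, 3 late genes fell. The C-4 decarboxylase PCI_4529 had 4.31 and 2.34 FPKM in TL2D, against 8.84 and 9.60 in CK2D (log2 −1.28 ± 0.26, adjusted p = 0.0157; up to 0.108 without a CK2D replicate). The second 24-C-methyltransferase, PCI_6914, had 11.8 and 13.8 FPKM in TL2D, against 21.2 and 23.6 in CK2D (log2 −0.76 ± 0.13, adjusted p = 0.0109; up to 0.102 without a CK2D replicate). The Delta(24(24(1)))-sterol reductase PCI_1023, which saturates the side chain at the end of the route, had 98.9 and 108 FPKM in TL2D, against 163 and 145 in CK2D (log2 −0.57 ± 0.11, adjusted p = 0.0133; up to 0.104 without a CK2D replicate). Its namesake PCI_1919 had 65.3 and 56.9 FPKM in TL2D, against 84.3 and 73.7 in CK2D, with no call (log2 −0.37 ± 0.12, adjusted p = 0.0605). Ergosterol biosynthetic protein 28 (PCI_1034), known in yeast as a scaffold for the C-4 enzymes, had 72.7 and 78.8 FPKM in TL2D, against 83.5 and 72.3 in CK2D, with a change inside the replicate spread (adjusted p = 0.798).

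Because FPKM are scaled by gene length, the genes named for 1 step can be set side by side, and 8 steps had 2 genes. For each, the share of the pair's summed FPKM held by the gene that was lower on plates was computed. That gene was picked by its mean in CK2D, so its share there is the smaller by construction. PCI_1876 held 70.8% and 65.4% of 14-alpha-demethylase FPKM in TL3D, 65.6% and 62.5% in TL2D and 2.79% and 3.41% in CK2D. PCI_6396 held 31.3% and 28.3% of Delta(14)-reductase FPKM in TL3D, 36.99% and 40.9% in TL2D and 10.3% and 9.58% in CK2D. PCI_6659 held 21.3% and 18.6% of methylsterol monooxygenase FPKM in TL3D, 20.00% and 19.7% in TL2D and 3.55% and 4.18% in CK2D. In these steps the gene that was lower on plates held a larger share in all 4 leaf libraries.

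The desaturase PCI_2153 held 60.4% and 61.5% of its pair in TL3D, 55.2% and 50.01% in TL2D and 32.7% and 39.96% in CK2D. The shares of the reductase PCI_1919 were 47.5% and 48.9% in TL3D, 39.8% and 34.5% in TL2D and 34.1% and 33.8% in CK2D. In the other 3 steps the share was smaller in TL2D than in CK2D, and the TL3D shares of PCI_6914 and PCI_4529 lay between both. The squalene synthase PCI_9347 held 3.32% and 2.97% in TL3D, 2.59% and 2.75% in TL2D and 14.7% and 18.2% in CK2D. PCI_6914 held 11.4% and 9.01% of methyltransferase FPKM in TL3D, 3.55% and 4.30% in TL2D and 13.3% and 15.4% in CK2D. PCI_4529 held 8.90% and 8.42% of decarboxylase FPKM in TL3D, 4.54% and 2.36% in TL2D and 11.2% and 11.6% in CK2D. TL2D and CK2D did not overlap in any of the 8 shares. Shares of other gene pairs were not computed. For levels of single genes, a different measure, 82.3% of all tested genes did not overlap between these groups. A two-sided exact permutation test of the ratio between both genes gave p = 0.333 for each step, the smallest that 2 libraries against 2 allow. How the authors counted reads that fit both genes of a pair is not given in the sources used here, so a pair of near-identical genes could be split unevenly.

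**Figure D3:**
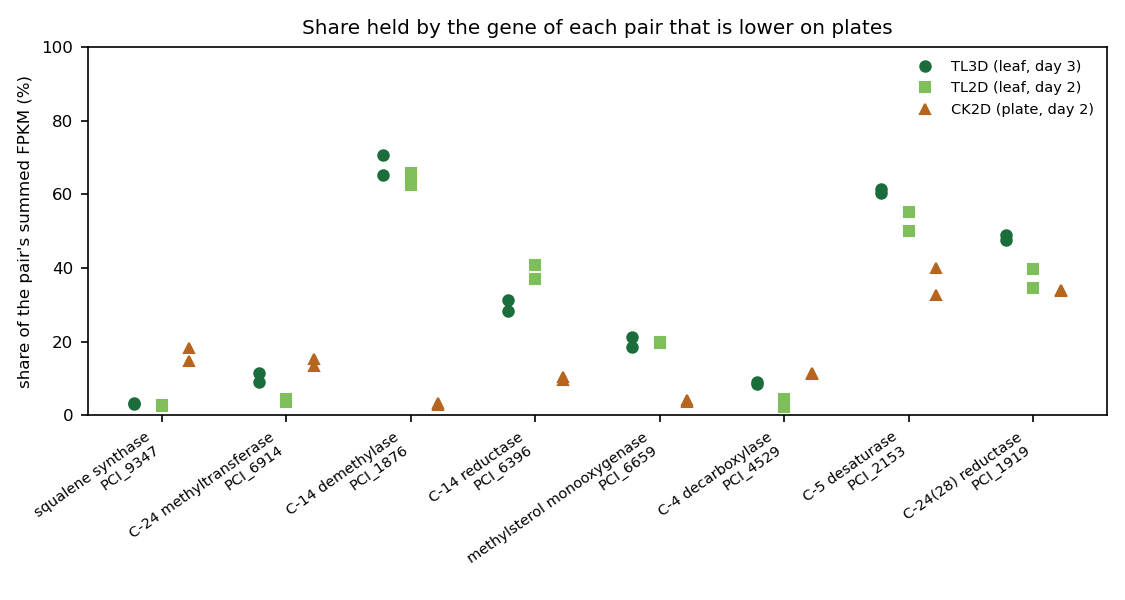
Share (%) of the summed FPKM of 2 genes named for 1 step, held by the gene that is lower on plates, with 1 point per library for TL3D, TL2D and CK2D. For the C-14 demethylase PCI_1876 the share is 65.6% and 62.5% in TL2D, against 2.79% and 3.41% in CK2D.

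The route up to lanosterol held calls in both directions. Of its 11 genes, 5 rose, 2 fell and 4 had no call in TL2D (24.8% and 29.4% of all tested genes rose and fell). The median log2 change was 0.32, and their summed FPKM was 927 and 936 in TL2D, against 653 and 662 in CK2D. HMG-CoA synthase (PCI_5606), which joins acetyl-CoA to acetoacetyl-CoA, had 147 and 141 FPKM in TL3D, 192 and 189 in TL2D and 42.5 and 41.8 in CK2D. Both leaf groups lay above the plates without overlap (log2 2.15 ± 0.08, adjusted p = 0.000382 in TL2D). HMG-CoA reductase (PCI_5421), which makes mevalonate and is the statin target, had 26.8 and 28.6 FPKM in TL2D, against 23.5 and 20.5 in CK2D, and its change had no call (log2 0.32 ± 0.12, adjusted p = 0.0736). Mevalonate kinase (PCI_1538), the next enzyme, fell (log2 −0.71 ± 0.15, adjusted p = 0.0172), with 36.5 and 28.4 FPKM in TL2D, against 51.8 and 54.6 in CK2D. The fall had an adjusted p of up to 0.117 without a CK2D replicate.

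Phosphomevalonate kinase (PCI_6912) had no call (log2 0.10 ± 0.09). Diphosphomevalonate decarboxylase (PCI_0579), which makes isopentenyl diphosphate, rose (log2 0.43 ± 0.09, adjusted p = 0.0175), as did the isomerase that turns it into dimethylallyl diphosphate (PCI_2787, log2 0.36 ± 0.08, adjusted p = 0.0222). Farnesyl pyrophosphate synthase (PCI_0284) had 116 and 125 FPKM in TL2D, against 70.1 and 67.2 in CK2D, and rose 1.76-fold (adjusted p = 0.0041). These 3 rises had adjusted p up to 0.124, 0.158 and 0.0546 without a CK2D replicate. Of the genes named squalene synthase, which couples farnesyl units head to head, PCI_4064 had 165 and 179 FPKM in TL2D, against 124 and 126 in CK2D (log2 0.46 ± 0.09, adjusted p = 0.0147; up to 0.116 without a CK2D replicate). PCI_9347 had 5.01 and 4.62 FPKM in TL3D, 4.37 and 5.07 in TL2D and 21.4 and 27.99 in CK2D, so that the leaf libraries overlapped each other below the plates (log2 −2.16 ± 0.18, adjusted p = 0.00192). Squalene monooxygenase (PCI_0210), the target of terbinafine, and lanosterol synthase (PCI_7841), which closes the sterol rings, had no call (log2 −0.03 ± 0.09 and −0.25 ± 0.09). The HMG-CoA lyase PCI_8782, matched by name, splits HMG-CoA in leucine breakdown and is no sterol enzyme. It had no call in TL2D (log2 −0.11 ± 0.11).

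Members on branches off farnesyl diphosphate held calls in both directions, and dolichol and ubiquinone genes, outside the rule, are counted below. Geranylgeranyl pyrophosphate synthase (PCI_3757), which extends farnesyl by 1 unit for protein anchors and diterpenes, had 20.8 and 16.9 FPKM in TL3D, 13.1 and 10.2 in TL2D and 25.4 and 24.4 in CK2D. It fell 2.13-fold in TL2D (log2 −1.04 ± 0.15, adjusted p = 0.00702; up to 0.0733 without a CK2D replicate). Of 6 genes for protein prenylation, which ties lipid anchors to small GTPases, 1 rose and 5 had no call. Of all tested genes 24.8% rose and 29.4% fell. The riser was the Rab escort gene PCI_6284 (component A of the Rab enzyme), with 56.00 and 59.9 FPKM in TL2D, against 37.5 and 33.98 in CK2D (log2 0.68 ± 0.10, adjusted p = 0.00759; up to 0.0755 without a CK2D replicate). The shared alpha subunit PCI_1526, the farnesyltransferase beta subunit PCI_8878 and the geranylgeranyl transferase subunits PCI_6480, PCI_8133 and PCI_8617 had log2 changes between −0.06 and 0.26. Protoheme IX farnesyltransferase (PCI_1383), which makes the heme A precursor of cytochrome oxidase, had 24.1 and 27.9 FPKM in TL2D, against 25.2 and 20.8 in CK2D, with no call (adjusted p = 0.351).

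Among genes that handle finished sterols, 3 of 8 conjugation genes and 3 of 8 binding and transport genes fell in TL2D and 0 rose. Of all tested genes 29.4% fell and 24.8% rose, so these counts of falls lie near the background. PCI_2674 is annotated as sterol O-acyltransferase, ACAT/DAG/ARE types, a family name, and which esters it makes was not tested. It had the highest mean FPKM of all members. It had 236 and 276 FPKM in TL3D, 198 and 205 in TL2D and 507 and 564 in CK2D, with every leaf library below both plate libraries (log2 −1.40 ± 0.10, adjusted p = 0.00146). The second O-acyltransferase, PCI_8387, had 14.2 and 28.1 FPKM in TL2D, against 23.8 and 18.5 in CK2D, groups that overlap (adjusted p = 0.881). Sterol 3-beta-glucosyltransferases add a sugar to the sterol hydroxyl. Of 6 such genes PCI_3479 fell 8.31-fold (log2 −1.76 ± 0.26, adjusted p = 0.00774), with 0.772 and 0.166 FPKM in TL2D, against 3.46 and 4.33 in CK2D. The fold was 23.5 without TL2D replicate 1 and 5.05 without TL2D replicate 2, and the adjusted p was up to 0.0687 without a CK2D replicate. PCI_9288 fell as well (log2 −0.80 ± 0.22, adjusted p = 0.0354; up to 0.172 without a CK2D replicate).

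Among the carriers, the NPC1-related transporter PCI_1178 had 13.5 and 9.85 FPKM in TL2D, against 27.2 and 27.1 in CK2D (log2 −1.17 ± 0.17, adjusted p = 0.00719). Its animal relative moves sterol out of late endosomes. The sterol carrier protein 2 genes, a lipid-transfer fold found in peroxisomes, were also lower, with 3.85 and 3.83 FPKM in TL2D, against 9.87 and 8.04 in CK2D for PCI_1190 and 16.6 and 17.04 FPKM in TL2D, against 31.3 and 29.6 in CK2D for PCI_4119 (log2 −1.03 ± 0.15 and −0.82 ± 0.10). These 3 falls had adjusted p up to 0.0711, 0.0723 and 0.0659 without a CK2D replicate. The 5 oxysterol-binding proteins, which carry sterol and phosphoinositides between membranes, had no call in TL2D, with log2 changes between −0.33 and 0.21. The most abundant of them, PCI_5618 (homolog 4), had 67.5 and 77.6 FPKM in TL2D, against 75.4 and 73.2 in CK2D.

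**Figure D4:**
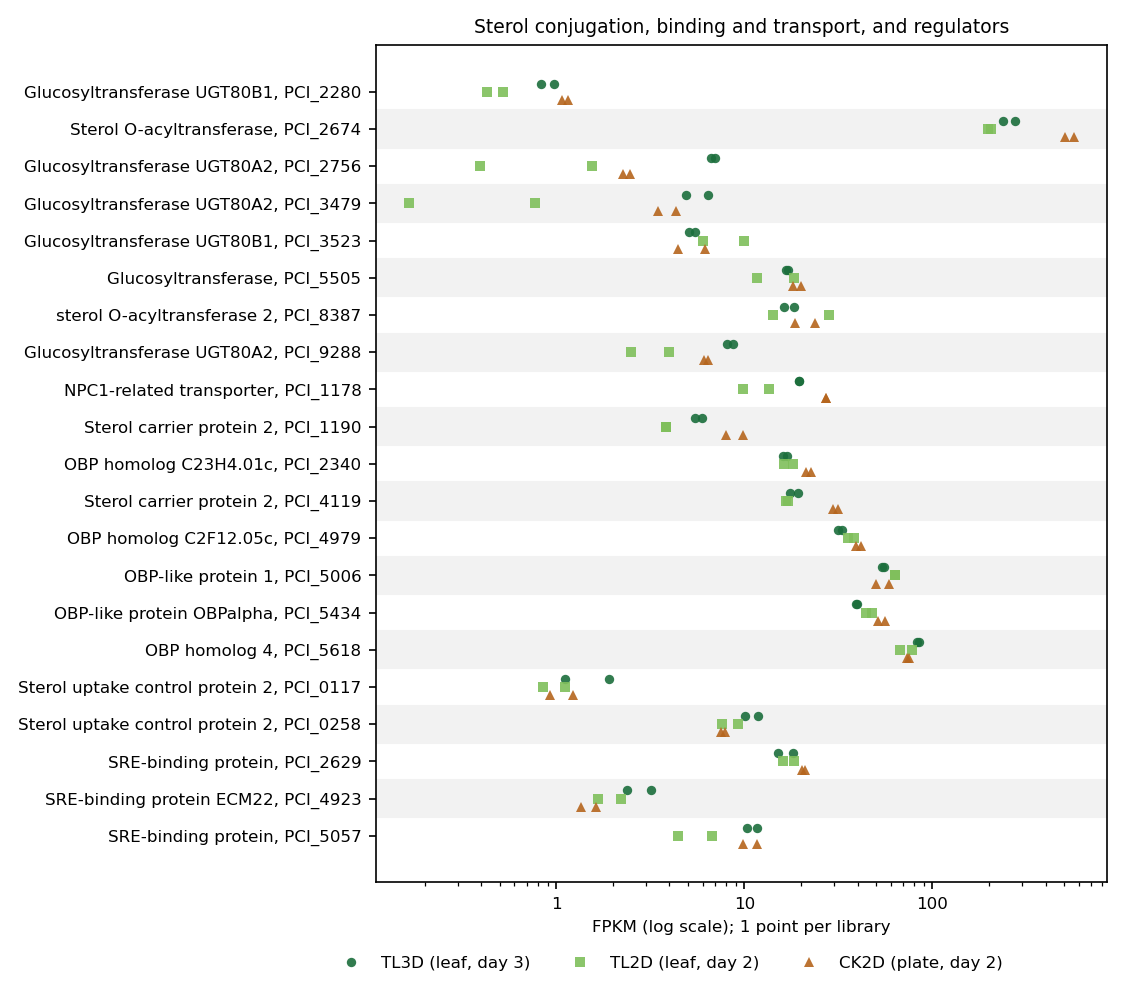
FPKM (log axis) of sterol conjugation genes, sterol binding and transport genes and regulators, with 1 point per library for TL3D, TL2D and CK2D. The O-acyltransferase PCI_2674 is lower on leaves, and the glucosyltransferases PCI_2756 and PCI_3479 are lowest in TL2D, at 1.54 and 0.395 FPKM and 0.772 and 0.166 FPKM.

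Of 5 genes with names of sterol regulators 0 rose and 1 fell in TL2D (24.8% and 29.4% of all tested genes). Sterol regulatory element-binding proteins are membrane-held transcription factors that act when sterol or oxygen is short in other fungi, and Upc2, the sterol uptake control protein 2 of baker's yeast, binds ergosterol. PCI_5057 had 11.6 and 10.3 FPKM in TL3D, 6.73 and 4.44 in TL2D and 11.6 and 9.79 in CK2D. Only TL2D lay apart, below the others, and its fall was log2 −0.85 ± 0.22, adjusted p = 0.0306 (up to 0.174 without a CK2D replicate). The more abundant PCI_2629 of the same name had 18.4 and 16.2 FPKM in TL2D, against 20.2 and 21.1 in CK2D (adjusted p = 0.134). PCI_0258, PCI_0117 and PCI_4923 had log2 changes of 0.11, −0.07 and 0.23 with no call. The levels of PCI_0117 and PCI_4923 stayed between 0.849 and 3.18 FPKM in all 6 libraries.

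TL3D was compared with TL2D to see what changed on leaves between days 2 and 3. Few members passed. The glucosyltransferases PCI_2756, PCI_3479 and PCI_9288 and the methyltransferase PCI_6914 rose, and the reductase PCI_6396 and the HMG-CoA lyase PCI_8782 fell. That is 4 of 57 tested members up (6.77% of all 8222 tested genes rose) and 2 down (3.3% of all genes fell), 10.5% of members in all against 10.1% of genes. The median log2 change was 0.03, against −0.02 over all tested genes. At least 1 on the log2 scale, 3 rose and 0 fell (5.14% and 0.815% of all tested genes, 5.96% in either direction). At an unadjusted p under 0.05 there were 21 members (36.8%, against 30.4% of all tested genes). The authors' deposited table marks 5 members as higher and 0 as lower, and the share of all genes marked there was not counted. In limma without either TL3D replicate 0 members were called, as were 0 of all genes, where the spread comes from the TL2D pair alone. Without TL2D replicate 1, 15 members rose and 10 fell (22% and 17.5% of all tested genes). Without TL2D replicate 2, 9 rose and 4 fell (12.4% and 12.6% of all tested genes), so the counts grew over all genes and not for the members alone.

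The glucosyltransferase PCI_3479 had 6.39 and 4.90 FPKM in TL3D, against 0.772 and 0.166 in TL2D, a rise of 12.05-fold (log2 2.20 ± 0.27, adjusted p = 0.021). The fold was 34.1 without TL2D replicate 1 and 7.32 without TL2D replicate 2. PCI_2756 had 6.63 and 6.97 FPKM in TL3D, 1.54 and 0.395 in TL2D and 2.46 and 2.26 in CK2D. It was highest in TL3D and rose 7.02-fold over TL2D (log2 2.05 ± 0.31, adjusted p = 0.0297; 17.2-fold and 4.41-fold without TL2D replicates 1 and 2). PCI_9288 had 8.69 and 8.08 FPKM in TL3D, against 2.49 and 4.001 in TL2D (log2 1.17 ± 0.21, adjusted p = 0.0402). With a pseudocount of 0.1, PCI_2756 and PCI_9288 had no call (adjusted p = 0.0554 and 0.0517). All 3 carry the plant-derived name UGT80A2, and each had both TL2D values below the values of the other groups. PCI_3523 and PCI_5505, with other glucosyltransferase names, had no call (log2 −0.49 ± 0.24 and 0.19 ± 0.23), and PCI_2280, at 0.974 and 0.830 FPKM in TL3D and 0.519 and 0.429 in TL2D, was not tested.

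The methyltransferase PCI_6914 had 28.7 and 24.3 FPKM in TL3D, against 11.8 and 13.8 in TL2D (log2 0.99 ± 0.15, adjusted p = 0.0287), while the main methyltransferase PCI_7505 had 224 and 246 FPKM in TL3D, against 322 and 308 in TL2D, with no call (adjusted p = 0.0647). The reductase PCI_6396 had 34.4 and 33.4 FPKM in TL3D, against 56.6 and 52.8 in TL2D (log2 −0.67 ± 0.10, adjusted p = 0.0296). The lyase PCI_8782 had 27.3 and 27.6 FPKM in TL3D, 55.4 and 50.7 in TL2D and 60.5 and 54.6 in CK2D, lowest in TL3D (log2 −0.92 ± 0.11, adjusted p = 0.0193). The largest rises of TL2D over CK2D otherwise showed no call between the leaf days. PCI_1876 had a log2 change of 0.10 ± 0.12 (adjusted p = 0.618), PCI_6659 0.05 ± 0.13 and PCI_6107 0.05 ± 0.13. HMG-CoA synthase had 147 and 141 FPKM in TL3D, against 192 and 189 in TL2D, which did not overlap, at log2 −0.40 ± 0.09, adjusted p = 0.0597. Of the 11 genes up to lanosterol 0 were called and of the 16 genes after it 1 rose and 1 fell (6.77% and 3.3% of all tested genes).

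TL3D against CK2D differs in substrate and day together, and it shares libraries with both comparisons above. In TL3D 19 of 58 tested members rose (28.1% of all 8356 tested genes) and 12 fell (30.2%), and 20 of these 31 calls passed in each of the 4 fits that left out 1 library. At least 1 on the log2 scale, 8 rose and 3 fell (8.81% and 7.08% of all tested genes). PCI_1876 changed by 6.16 ± 0.10 on the log2 scale (adjusted p = 2.22e-08), against 6.06 ± 0.12 in TL2D. PCI_6659 changed by 4.04 ± 0.11 in TL3D and 3.99 ± 0.15 in TL2D, PCI_2153 by 2.55 ± 0.16 and 2.10 ± 0.29, and PCI_5606 by 1.75 ± 0.08 and 2.15 ± 0.08. PCI_9347 changed by −2.13 ± 0.14 in TL3D and −2.16 ± 0.18 in TL2D, and PCI_2674 by −1.06 ± 0.10 and −1.40 ± 0.10. For each of these 6 genes both changes were called, but other calls differed between the leaf groups. PCI_0449, PCI_0579, PCI_2787 and PCI_9399 rose in TL2D and had no call in TL3D (adjusted p = 0.071, 0.11, 0.504 and 0.0579). The regulator genes PCI_0258 and PCI_4923 rose in TL3D (adjusted p = 0.0141 and 0.0186) with no call in TL2D. Of the 11 genes up to lanosterol 3 rose and 2 fell in TL3D, and of the 16 after it 9 rose and 1 fell (28.1% and 30.2% of all tested genes). The glucosyltransferase PCI_2756 rose in TL3D (log2 1.22 ± 0.13, adjusted p = 0.000199), with no call in TL2D (log2 −0.83 ± 0.33, adjusted p = 0.0891). The lyase PCI_8782 fell (log2 −1.04 ± 0.09, adjusted p = 9.79e-05), and PCI_4529 and PCI_5057 had no call (log2 −0.18 ± 0.11 and 0.04 ± 0.13). Of 8 sterol binding and transport genes 6 fell and 0 rose in TL3D (30.2% and 28.1% of all tested genes). Among them were the oxysterol-binding proteins PCI_2340, PCI_4979 and PCI_5434, which had no call in TL2D. Their log2 changes in TL3D were −0.39, −0.33 and −0.44 (adjusted p = 0.0114, 0.0179 and 0.00492).

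Genes of neighbouring pathways were counted by name. Sterol P450 enzymes take electrons from cytochrome P450 reductase and cytochrome b5, and of 11 tested genes with such names 6 rose and 0 fell in TL2D against CK2D (24.8% and 29.4% of all tested genes). Their median log2 change was 0.46, against −0.10 over all tested genes. NADPH-cytochrome P450 reductase (PCI_2800) had 123 and 124 FPKM in TL2D, against 78.2 and 71.7 in CK2D, and cytochrome b5 (PCI_1872) had 299 and 304 FPKM in TL2D, against 172 and 197 in CK2D. Both rose, with adjusted p of 0.00521 and 0.00746, and of up to 0.0617 and 0.0724 without a CK2D replicate. A cytochrome b5 reductase (PCI_7308) rose most, with 8.35 and 8.74 FPKM in TL2D, against 0.856 and 1.39 in CK2D (log2 2.18 ± 0.18, adjusted p = 0.00204). In TL3D against TL2D it was the 1 gene of this list called, and it fell (log2 −1.44 ± 0.16, adjusted p = 0.0182). Of all tested genes 6.77% rose and 3.3% fell there.

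Of 12 tested genes of acetyl-CoA and acetoacetyl-CoA supply 3 rose and 4 fell in TL2D, close to the 24.8% and 29.4% of all tested genes. The peroxisomal thiolase PCI_1000, which belongs to fatty acid oxidation, rose most, with 76.4 and 82.8 FPKM in TL2D, against 8.72 and 9.43 in CK2D (log2 3.00 ± 0.10, adjusted p = 0.00032), and fell in TL3D against TL2D (log2 −0.52 ± 0.10, adjusted p = 0.0423; 0.0546 with median log ratio scaling). The acetyl-CoA acetyltransferase PCI_6337 had 176 and 188 FPKM in TL2D, against 119.7 and 111 in CK2D, and rose (log2 0.65 ± 0.09, adjusted p = 0.00687; up to 0.0746 without a CK2D replicate), and its mitochondrial counterpart PCI_6035 had 42.04 and 38.7 FPKM in TL2D, against 87.5 and 81.5 in CK2D, and fell furthest (log2 −1.05 ± 0.10, adjusted p = 0.00262). Of 7 tested steroid-type and ergosterol names outside the rule 2 rose and 1 fell (24.8% and 29.4% of all tested genes). The emopamil-binding protein-like gene PCI_8820, of the C-8 isomerase family, had 44.6 and 40.01 FPKM in TL2D, against 27.1 and 25.6 in CK2D (log2 0.66 ± 0.11, adjusted p = 0.00902), and the hydroxysteroid dehydrogenase-like gene PCI_7649 fell (log2 −0.72 ± 0.14, adjusted p = 0.014). Their adjusted p was up to 0.0854 and 0.117 without a CK2D replicate.

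Of 40 tested genes of other prenyl lipids, many of them for dolichol-linked protein glycosylation, 6 rose and 11 fell in TL2D, against 24.8% and 29.4% of all tested genes. The median log2 change was −0.14, against −0.10 over all tested genes. The flavin prenyltransferase PCI_1231, which makes a cofactor and no sterol, rose most, with 41.3 and 14.9 FPKM in TL2D, against 0.719 and 1.09 in CK2D. Its fold was 31.1 (16.5 without TL2D replicate 1; adjusted p = 0.00559). The terpene cyclase gene PCI_6539, annotated aurD, fell furthest (log2 −1.21 ± 0.24, adjusted p = 0.0158), with 1.20 and 0.468 FPKM in TL2D, against 3.17 and 3.15 in CK2D. It was 3.80-fold lower, and 6.76-fold lower without TL2D replicate 1. Without a CK2D replicate the adjusted p of PCI_1231 and PCI_6539 was up to 0.0572 and 0.0981. In TL3D against TL2D 0 rose and 2 fell (6.77% and 3.3% of all tested genes). The sesterterpenoid synthase PCI_5070 fell furthest (log2 −0.64 ± 0.10, adjusted p = 0.0314).

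Sphingolipids pack with ergosterol in the fungal plasma membrane, and of 23 tested sphingolipid names 4 rose and 7 fell in TL2D (24.8% and 29.4% of all tested genes). The median log2 change was −0.05, against −0.10 over all tested genes. Sphingomyelin phosphodiesterase B (PCI_0011) rose most, with 10.1 and 7.24 FPKM in TL2D, against 0.0827 and 0.0372 in CK2D (log2 3.17 ± 0.20, adjusted p = 0.00124). LSP1 (PCI_8639) fell furthest, with 48.4 and 5.95 FPKM in TL2D, against 179.5 and 162 in CK2D (log2 −3.21 ± 0.95, adjusted p = 0.0436). It was 6.28-fold lower, and 28.7-fold and 3.52-fold lower without TL2D replicates 1 and 2, with an adjusted p of up to 0.175 when 1 library was left out and of 0.0524 with no filter on low values. The other eisosome gene, PIL1 (PCI_4505), which with LSP1 builds membrane furrows in yeast, had 41.3 and 39.1 FPKM in TL2D, against 177 and 172 in CK2D (log2 −2.09 ± 0.09, adjusted p = 0.00044). In TL3D against TL2D 2 genes of the list rose and 0 fell (6.77% and 3.3% of all tested genes). PIL1 rose most (log2 1.61 ± 0.10, adjusted p = 0.0112), with the inositol phosphosphingolipid phospholipase PCI_8634 next (log2 0.97 ± 0.14, adjusted p = 0.0268).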

How the data were processed

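RNA sequencing of 6 libraries was analysed from 2 deposited tables that share the TL2D columns, which were identical in both. Per the file headers, the deposited values are FPKM per library, made by the authors. Per the submitters' processing notes Cufflinks was used, with its version, the aligner, genome build, annotation and strand setting not given in the sources used here. Besides FPKM, the deposited fold is a ratio of mean FPKM, the deposited log2 column is its log2, and the deposited FDR is an adjusted p-value from the authors whose test is not given.

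FPKM were analysed with R 4.3.3 and limma 3.58.1. Each comparison kept genes that reached 1 FPKM in 2 or more of its 4 libraries and tested log2(FPKM + 1) by trended eBayes, with residual degrees of freedom of 2. The p-values were adjusted over all tested genes. Fold changes on this scale understate the change of low genes. Library depth is unknown and counting intervals were therefore not computed. The fit was run on simulated data with known changes. The simulation gave both groups the same spread and placed changes only in genes well above 1 FPKM. It does not cover the wider spread of TL2D or members near 1 FPKM.

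The members, role classes and neighbouring lists were chosen with earlier results of these data known. Roles, route steps and some search terms were set by product name after the tables were read. Named are members called with a log2 change of at least 1 in TL2D against CK2D or TL3D against TL2D, PCI_1876, the most abundant member of each role, every route enzyme, and per neighbouring list the called extremes. Other genes in the text were chosen after their values were seen. Alternatives were other scalings, a pseudocount of 0.1, no low-value filter, 1 fit over all 6 libraries, each replicate left out, the replicate number as a block, an adjusted p under 0.01, a log2 change of at least 1, and the authors' FDR. Sequences and positions were not used here, because 0 gene numbers were found among the 11657 genes listed by RefSeq.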

Additional observations from a re-analysis of the deposited data

How the results depend on the processing

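For TL2D against CK2D (18 members higher, 13 lower), an adjusted p under 0.01 left 11 and 7. A log2 change of at least 1 left 8 and 7 (10% and 12.2% of all tested genes). Without either CK2D replicate both counts were lower, as given above beside the shares of all tested genes. For TL3D against TL2D (4 higher, 2 lower), 2 were higher with a pseudocount of 0.1 (5.28% of all tested genes). In 1 fit over all 6 libraries the counts were 8 and 6 (10.7% and 7.74% of all tested genes). They were 0 and 0 at an adjusted p under 0.01, and 10 and 5 by the authors' deposited FDR. At a log2 change of at least 1, 0 were lower (0.815% of all tested genes). Shares of all genes were not counted for the adjusted p under 0.01 or the authors' FDR, so those counts do not set the members apart. Leaving out 1 replicate moved the counts as given above, beside the shares of all tested genes. For TL3D against CK2D (19 and 12), a log2 change of at least 1 left 8 and 3 (8.81% and 7.08% of all tested genes). The stricter thresholds lower a count by construction, and for the other settings the cause was not tested. Other alternatives kept each of these counts within 1.5 times.

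Deviations of same-numbered libraries correlated across genes at 0.174 (TL3D with TL2D), −0.246 (TL3D with CK2D) and −0.0778 (TL2D with CK2D). With 2 libraries per group these values cannot decide whether replicate numbers pair the libraries. With the replicate number as a block, 15 members were higher and 12 lower in TL2D against CK2D (20.2% and 22.9% of all tested genes). The counts were 4 and 2 in TL3D against TL2D (6.74% and 2.25% of all tested genes). In TL3D against CK2D they were 16 and 11 (25.7% and 26.6% of all tested genes).

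Over all tested members and the called neighbouring genes, whose alternatives were chosen after seeing the data, 49 settings of 32 changes turned the sign. None of these changes had a call, and none was above 0.1999 on the log2 scale in the full fit. Median log ratio scaling gave log2 changes of 0.065 for PCI_0210 (TL2D against CK2D), 0.055 for PCI_1034 (TL2D against CK2D), 0.054 for PCI_5618 (TL2D against CK2D), 0.022 for PCI_8133 (TL2D against CK2D), 0.023 for PCI_8387 (TL2D against CK2D), 0.028 for PCI_1383 (TL3D against CK2D), 0.035 for PCI_1919 (TL3D against CK2D). Leaving out 1 replicate spread the log2 change of PCI_0117 from −0.18 to 0.035, PCI_0258 from −0.020 to 0.23, PCI_1034 from −0.14 to 0.066, PCI_5618 from −0.14 to 0.061, PCI_8387 from −0.53 to 0.40, PCI_8617 from −0.099 to 0.20 for TL2D against CK2D; of PCI_0449 from −0.17 to 0.038, PCI_1034 from −0.26 to 0.032, PCI_1526 from −0.012 to 0.21, PCI_1876 from −0.0035 to 0.20, PCI_2340 from −0.14 to 0.019, PCI_2629 from −0.19 to 0.075, PCI_4246 from −0.22 to 0.16, PCI_5505 from −0.12 to 0.49, PCI_6107 from −0.082 to 0.17, PCI_6480 from −0.019 to 0.076, PCI_6659 from −0.086 to 0.19, PCI_7841 from −0.087 to 0.012, PCI_8133 from −0.14 to 0.027, PCI_8339 from −0.27 to 0.071, PCI_8387 from −0.67 to 0.27, PCI_8617 from −0.018 to 0.15, PCI_9347 from −0.061 to 0.11 for TL3D against TL2D; and of PCI_1383 from −0.14 to 0.12, PCI_1919 from −0.11 to 0.11, PCI_3523 from −0.19 to 0.20, PCI_5006 from −0.10 to 0.12, PCI_5057 from −0.078 to 0.15, PCI_5421 from −0.26 to 0.067, PCI_8617 from −0.033 to 0.26 for TL3D against CK2D.

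With 2 libraries per group and no read totals, changes of members near 1 FPKM and differences between the leaf days are the least certain.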
